A study of Mus musculus with 12 samples.

Results

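Neuron formation was followed in the treated gastruloids through 8 genes, the proneural factors Neurog1, Neurog2, Neurod1 and Neurod4, and the early neuron genes Dcx, Tubb3, Elavl3 and Elavl4. The 8 were chosen by symbol, for their known roles, out of 38911 genes in the deposited tables, and each gene's value was the sum of the counts of its RefSeq transcripts. After a filter on low counts 5 of the 8 (Neurog2, Neurod1, Tubb3, Elavl3 and Elavl4) stood among the 16966 genes that could be tested. Neurog1, Neurod4 and Dcx were close to undetected in every library.

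Neurons arise when a neural progenitor switches on proneural basic helix-loop-helix transcription factors, which bind the E-box as dimers with E proteins. Neurog1 and Neurog2 act first, in progenitors, and turn on Neurod1 and Neurod4, which drive the cell out of division and into differentiation. The young neuron then makes the beta-tubulin Tubb3, the microtubule-associated protein Dcx, and the RNA-binding proteins Elavl3 and Elavl4, also called HuC and HuD. At the trunk and tail level that gastruloids resemble, neural tissue and mesoderm arise in part from shared progenitors that carry T and Sox2.

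When small clusters of mouse embryonic stem (ES) cells are grown in suspension they can elongate and form the germ layers, and are then called gastruloids. Here E14TG2a cells, 1 ES cell line, were kept in 2iLIF medium, aggregated and pulsed with the Wnt agonist CHIR99021, and the treatments ran from day 3 to day 4, when the gastruloids were harvested. The 4 groups received no glucose (0X), 1X glucose (21.25 mM), 3X glucose (63.75 mM), or 5 mM 2-deoxy-D-glucose (2-DG), a competitive inhibitor of hexokinase, in 1X glucose. Each group had 3 polyA RNA libraries, 1 from each of ES cell passages 13, 15 and 16, and each library pooled the gastruloids given 1 treatment on 1 plate.

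The 12 libraries held between 31902471 and 45956080 counts. Of all tested genes, 7840 differed between the passages in a fit of treatment and passage. Between 2-DG and 1X glucose 7001 differed with the passage held constant as a block, and 2990 without the block. Results below are therefore also given with the block. Among markers of other cells, 2 of 10 presomitic and somitic mesoderm genes fell with 2-DG and 0 rose. Of all tested genes 8.51% fell and 9.12% rose. With the block 4 of the 10 genes fell and 0 rose, where 20.2% and 21.1% of all tested genes did. The summed level of these 10 genes was 720 to 1255 CPM (each count divided by its TMM-adjusted library size) in the 2-DG libraries and 1181 to 1652 CPM in 1X glucose. These ranges overlapped, but summed levels, here and below, do not pair the libraries by passage. In whole gastruloids, more cells of a type and more RNA per cell cannot be told apart.

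The promoters of the 5 measurable genes are shown because the study's readout is transcript level, and because the E-box is the letter pattern that the factors in this group bind. Each line is the 250 bases before a RefSeq transcript start (build GRCm38.p6), read 5′ to 3′ along the gene. Capitals mark CANNTG, the E-box pattern, which reads the same on both strands, and TATAA at 20 to 40 bases before the start, sought on the gene's strand. The window of Neurog2 is chr3:127632886-127633135 on the plus strand, that of Neurod1 chr2:79456637-79456886 on the minus strand, that of Tubb3 chr8:123411303-123411552 on the plus strand, and that of Elavl3 chr9:22052024-22052273 on the minus strand. Elavl4 has 4 starts in the table, and the window shown is chr4:110287528-110287777 on the minus strand.
Neurog2: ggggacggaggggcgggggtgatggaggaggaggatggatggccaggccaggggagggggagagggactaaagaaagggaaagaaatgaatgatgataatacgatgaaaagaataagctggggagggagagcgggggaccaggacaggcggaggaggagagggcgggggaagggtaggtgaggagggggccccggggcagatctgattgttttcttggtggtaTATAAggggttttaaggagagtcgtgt
Neurod1: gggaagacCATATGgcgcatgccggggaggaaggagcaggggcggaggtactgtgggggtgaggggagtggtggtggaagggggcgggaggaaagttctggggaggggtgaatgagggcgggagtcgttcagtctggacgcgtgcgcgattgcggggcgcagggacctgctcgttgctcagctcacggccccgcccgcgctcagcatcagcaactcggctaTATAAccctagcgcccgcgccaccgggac
Tubb3: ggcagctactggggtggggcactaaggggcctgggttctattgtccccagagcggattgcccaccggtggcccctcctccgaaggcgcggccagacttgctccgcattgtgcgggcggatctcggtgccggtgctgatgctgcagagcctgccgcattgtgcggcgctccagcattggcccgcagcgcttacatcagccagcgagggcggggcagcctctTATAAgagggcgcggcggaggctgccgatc
Elavl3: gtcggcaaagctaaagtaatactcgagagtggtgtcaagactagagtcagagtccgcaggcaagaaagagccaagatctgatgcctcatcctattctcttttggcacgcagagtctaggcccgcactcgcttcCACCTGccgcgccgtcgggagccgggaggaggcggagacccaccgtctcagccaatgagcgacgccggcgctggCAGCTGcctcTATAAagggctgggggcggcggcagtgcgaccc
Elavl4: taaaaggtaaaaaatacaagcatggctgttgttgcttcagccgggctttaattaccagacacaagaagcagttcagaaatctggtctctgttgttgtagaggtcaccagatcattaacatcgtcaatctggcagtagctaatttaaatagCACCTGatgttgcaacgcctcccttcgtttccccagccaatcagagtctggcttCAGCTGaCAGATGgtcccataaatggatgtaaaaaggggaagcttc

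Of these 5 promoters, 4, all but that of Elavl4, held TATAA in that interval, a pattern found in 3.52% of the 32851 promoters of the table. It lay 27 bases before the start in Neurog2, 29 in Neurod1, 30 in Tubb3 and 33 in Elavl3. This pattern was looked for after the sequences had been read, so the count is only a description. The windows of Neurog1, Neurod4 and Dcx held none, nor did the other 3 windows of Elavl4.

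E-boxes were present in 3 of the 5 windows, against 66.2% of all promoters. Neurod1 held CATATG, 242 bases before its start, a form present in 3.46% of promoters. Elavl3 held CACCTG and CAGCTG, and Elavl4 held CACCTG as well as CAGCTG and CAGATG. Of all promoters, 4271 held CAGCTG and 4745 (14.4%) held CAGATG or its reverse complement CATCTG, each of these being a form of CANNTG. Neurog2 and Tubb3 held no CANNTG in these 250 bases, nor did the windows of Neurog1, Neurod4 and Dcx. The other windows of Elavl4 differed. That of the start at 110351911 held no CANNTG, and that at 110286834 held only CATCTG. That at 110287511 overlaps the window shown and held the same forms. Which start the gastruloids use was not tested. RefSeq also lists a predicted Neurog2 and a predicted Elavl3 transcript, and the gene spans in the annotation begin upstream of the starts shown.

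Neurog2, the proneural factor of the spinal cord and cortex, lies at chr3:127632733-127635636. In passages 13, 15 and 16, in that order, it stood at 0.878, 0.763 and 1.30 CPM in 1X glucose and at 4.22, 1.77 and 3.54 CPM with 2-DG. Every 2-DG library was above every 1X library, which was true in one direction or the other of 35.4% of all tested genes. The group means were 3.18 ± 1.26 CPM with 2-DG and 0.979 ± 0.281 CPM in 1X glucose (SD, n = 3 each).

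Neurog2 rose 3.22-fold with 2-DG (log2 fold change 1.69, SE 0.39, adjusted p = 0.0145 by edgeR's quasi-likelihood test with Benjamini-Hochberg adjustment over all tested genes). In the fit blocked by passage the log2 fold change was 1.68 (SE 0.24, adjusted p = 0.000307). The call rested on each of 2 libraries: without the 2-DG library of passage 13 the adjusted p of Neurog2 was 0.0538, and without the 1X library of passage 15 it was 0.0618.

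Neurod1, which acts after the neurogenins, lies at chr2:79452637-79456636. It stood at 1.71, 0.631 and 0.756 CPM in 1X glucose and at 3.37, 1.55 and 2.16 CPM with 2-DG. The groups overlapped, because the 1X library of passage 13 was above the 2-DG library of passage 15. Within each passage the 2-DG library was higher, with log2 ratios of 0.97, 1.28 and 1.50. Neurod1 did not pass the test without the passage (log2 fold change 1.18, SE 0.54, adjusted p = 0.163) and rose once passage was a block (log2 fold change 1.25, SE 0.18, adjusted p = 0.000311, edgeR).

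Neurog1 and Neurod4 were at the limit of detection. Neurog1 had 2 counts in each 1X library, between 0 and 3 in each of the others, and 19 in all 12. Neurod4 had 3 counts in 1X glucose and 3 with 2-DG, both in passage 13, and 0 in the other 10 libraries. A count of 0 allowed up to 0.0699 CPM in a 1X library and 0.0832 CPM in a 2-DG library, averaged over the libraries and for counting error only. No fold change was drawn for either gene.

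Tubb3, the beta-tubulin that marks young neurons, lies at chr8:123411553-123422015. It stood at 8.19, 4.79 and 7.30 CPM in 1X glucose and at 20.3, 18.0 and 15.2 CPM with 2-DG, with means of 6.76 ± 1.76 and 17.8 ± 2.52 CPM (SD, n = 3 each). The lowest 2-DG library was above the highest 1X library.

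Tubb3 rose 2.63-fold (log2 fold change 1.40, SE 0.22, adjusted p = 0.00231, edgeR). The rise was present in all 3 passages, with log2 ratios of 1.31, 1.91 and 1.06, and held with the block (adjusted p = 5.01e-05). It passed the test under all 16 alternatives tried, with a highest adjusted p of 0.0167. In 1 of these, the most abundant transcript alone, its counts were unchanged, since it has 1 listed transcript.

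**Figure D1:**
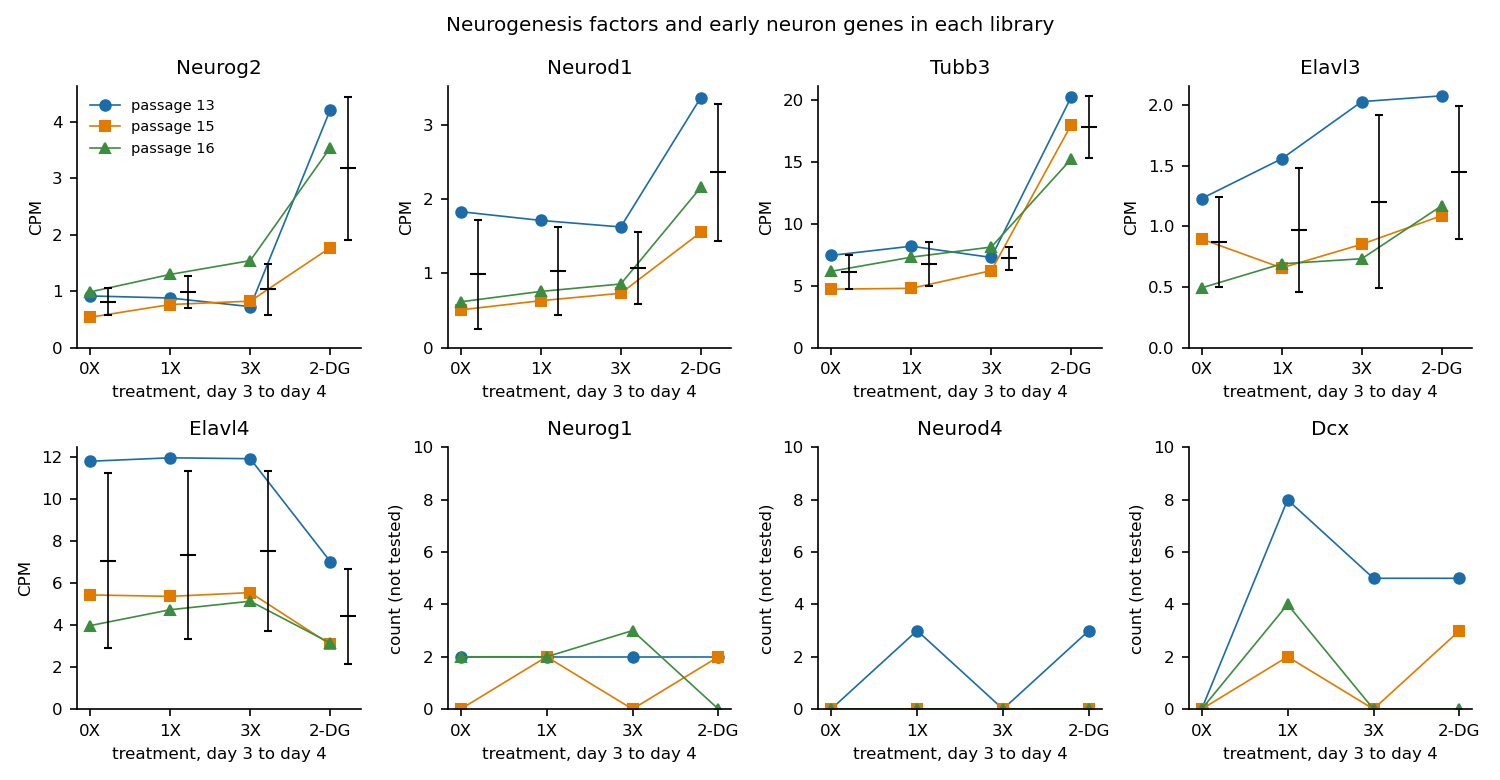
Level in CPM (vertical axis) of Neurog2, Neurod1, Tubb3, Elavl3 and Elavl4 in each library by treatment (0X, 1X and 3X glucose, and 2-DG), with points and lines coloured by ES cell passage and black bars for the group mean ± SD (n = 3), and estimated counts for Neurog1, Neurod4 and Dcx. The 2-DG libraries of Neurog2 and Tubb3 lie above all others, and passage 13 gives the highest line for Neurod1, Elavl3 and Elavl4 in all 4 treatments.

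Elavl3, an RNA-binding protein that appears as neurons leave the cell cycle, lies at chr9:22015005-22052146. It stood at 1.56, 0.658 and 0.691 CPM in 1X glucose and at 2.08, 1.09 and 1.17 CPM with 2-DG. The ranges of the groups overlapped. The 2-DG library was higher in 3 of 3 passages, with log2 ratios of 0.42, 0.72 and 0.76. Elavl3 did not pass without the block (log2 fold change 0.57, SE 0.49, adjusted p = 0.485) and passed with it (0.61, SE 0.20, adjusted p = 0.0307). The blocked call was lost when any 1 passage was left out (adjusted p between 0.072 and 0.142) and with DESeq2 in place of edgeR (adjusted p = 0.187).

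Elavl4 lies at chr4:110203737-110351939 and moved the other way. It stood at 11.97, 5.37 and 4.73 CPM in 1X glucose and at 7.03, 3.08 and 3.14 CPM with 2-DG. Passage 13 was the highest in both groups, so the ranges overlapped, but each 2-DG library was below its own 1X library, with log2 ratios of -0.77, -0.80 and -0.59. Elavl4 did not pass without the block (log2 fold change -0.74, SE 0.53, adjusted p = 0.389) and fell with it (log2 fold change -0.72, SE 0.10, adjusted p = 0.000266, edgeR).

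Dcx, at chrX:143855842-143933396, was counted on 1 predicted transcript of the 8 listed. It had 8, 2 and 4 counts in 1X glucose, 5, 3 and 0 with 2-DG, 5, 0 and 0 in 3X glucose, and 0 in all 3 libraries of 0X glucose. The counts were too few to pass the filter and were not tested. No fold change was drawn, since a count of 0 in a 0X library allowed up to 0.0922 CPM. The 1X libraries of passages 15 and 16, at 0.0526 and 0.0864 CPM, lay under that limit, and that of passage 13, at 0.176 CPM, lay above it. In each passage the 1X library also held more counts in total than the 0X library.

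In the comparison of 2-DG with 1X glucose, 2 of the 5 tested genes passed, both higher, where 17.6% of all tested genes passed, 9.12% higher and 8.51% lower. With the passage as a block all 5 tested genes passed, 4 higher and 1 lower, where 41.3% of all genes passed, 21.1% higher and 20.2% lower. With DESeq2 the counts were 2 without the block and 4 with it. Leaving out 1 passage in the blocked test left 4 of 5, always without Elavl3. An exact permutation test of 3 against 3 libraries cannot give a two-sided p below 0.1, so none was used for single genes.

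**Figure D2:**
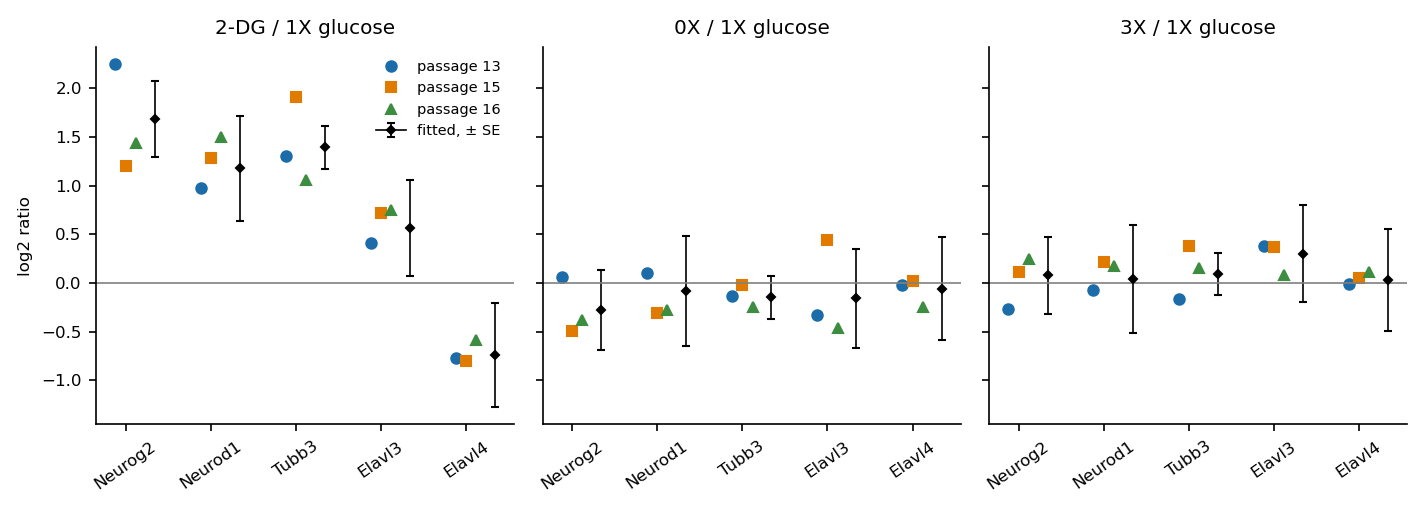
Log2 ratio to 1X glucose (vertical axis) of the 5 tested genes for 2-DG, 0X and 3X glucose, with 1 point for each passage (0.5 added to each count) and the fitted log2 fold change with its SE. For 2-DG all 3 passages lie above 0 for Neurog2, Neurod1, Tubb3 and Elavl3 and below 0 for Elavl4, while for 0X and 3X glucose the fitted values lie between -0.27 and 0.30.

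Levels of different genes were compared per kilobase of transcript. Tubb3 stood at 3.62 ± 0.945 CPM per kb in 1X glucose, followed by Elavl4 at 1.79 ± 0.975, Neurog2 at 0.440 ± 0.126, Neurod1 at 0.379 ± 0.217 and Elavl3 at 0.193 ± 0.102 (SD, n = 3). Neurog2 and Neurod1 differed by less than the SD of either, and Neurod1 and Elavl3 by less than the SD of Neurod1. The order was the same in 0X and 3X glucose. With 2-DG the order was Tubb3 at 9.55 ± 1.35 CPM per kb, Neurog2 at 1.43 ± 0.567, Elavl4 at 1.08 ± 0.551, Neurod1 at 0.864 ± 0.338 and Elavl3 at 0.289 ± 0.109. Neurog2 was then above Elavl4 by less than the SD of either, and Elavl4 above Neurod1 likewise. These levels assume 1 transcript length for each gene.

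Counts were not spread evenly over transcripts. Tubb3 and Neurod1 each rested on 1 transcript. Neurog2 rested on a predicted transcript with 56.4% of its 665 counts and a curated one with 43.6%. The curated one had counts in only 4 libraries, with 40 in each of the 1X libraries of passages 13 and 16 and 116 and 94 in the 2-DG libraries of the same passages.

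All counts of Elavl3 fell on a single transcript within each library, the curated one in 3 libraries and a predicted one in 9. The 3 were the 1X library of passage 13 and the 2-DG libraries of passages 15 and 16. Elavl4 was spread over 18 of 30 listed transcripts, and the most counted of them held 29.2% of its counts. With only the most abundant transcript of each gene, Neurog2 had a log2 fold change of 1.61 and no longer passed (adjusted p = 0.451). Tubb3, whose counts this left unchanged, passed (adjusted p = 0.0158). The transcript used for Neurog2 had 0 counts in the 1X library of passage 13, where all 40 fell on the curated one. For genes with more than 1 transcript, here and below, this alternative cannot tell a change in level from a change in how counts were assigned.

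**Figure D3:**
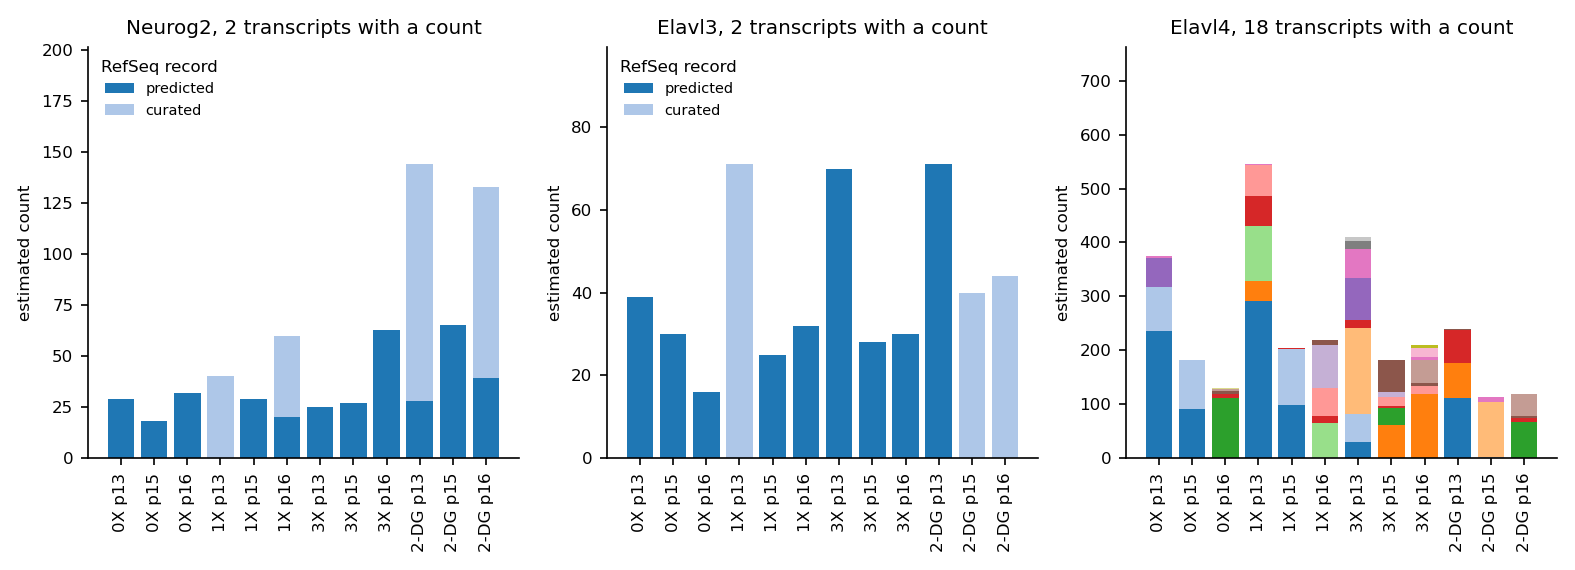
Estimated counts (vertical axis) in each of the 12 libraries, stacked by RefSeq transcript, for Neurog2, Elavl3 and Elavl4. Each bar of Elavl3 has 1 colour, in 3 libraries that of the curated transcript, while those of Neurog2 hold up to 2 transcripts and those of Elavl4 several.

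Glucose withdrawal and excess glucose were compared with the same 1X libraries. In 0X glucose, Neurog2 stood at 0.915, 0.538 and 0.986 CPM, Neurod1 at 1.83, 0.508 and 0.616 CPM, and Tubb3 at 7.45, 4.72 and 6.16 CPM. Elavl3 stood at 1.23, 0.896 and 0.493 CPM and Elavl4 at 11.8, 5.44 and 3.98 CPM. Each of these ranges overlapped that of 1X glucose, and the log2 fold changes ran from -0.27 (SE 0.41) for Neurog2 to -0.06 (SE 0.53) for Elavl4.

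In 3X glucose, Neurog2 stood at 0.725, 0.823 and 1.54 CPM, Neurod1 at 1.62, 0.731 and 0.856 CPM, and Tubb3 at 7.28, 6.22 and 8.12 CPM. Elavl3 stood at 2.03, 0.853 and 0.734 CPM and Elavl4 at 11.9, 5.55 and 5.14 CPM. The ranges overlapped again, and the log2 fold changes ran from 0.03 (SE 0.53) for Elavl4 to 0.30 (SE 0.50) for Elavl3.

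None of the 5 tested genes passed edgeR's test in either comparison, with 0 at an unadjusted p under 0.05 and 0 by DESeq2. Of all tested genes, 0.0118% passed in 0X glucose (0.0177% with the block) and 0% in 3X glucose (0% with the block). The blocked adjusted p lay between 0.781 and 0.928 in 0X and between 0.909 and 0.989 in 3X glucose. The SE values were 0.22 to 0.56 without the block and 0.096 to 0.271 with it. They leave room for changes of a size that these tests could not detect, less so with the block.

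Measured against 0X in place of 1X glucose, the 2-DG libraries gave the same pair of calls. Neurog2 rose 3.90-fold (log2 fold change 1.96, SE 0.40, adjusted p = 0.00773) and Tubb3 2.92-fold (log2 fold change 1.55, SE 0.22, adjusted p = 0.00131, edgeR). Both had every 2-DG library above every 0X library, where 37.9% of all tested genes had groups that did not overlap. With the most abundant transcript alone Neurog2 no longer passed (log2 fold change 0.58, adjusted p = 0.843).

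Against 0X glucose, 2 of 5 tested genes passed, both higher, where 18.9% of all genes passed, 9.86% higher and 9.04% lower. With the block 5 of 5 passed, 4 higher and Elavl4 lower (log2 fold change -0.65), where 43.1% of all genes passed, 21.5% in each direction. Without the 0X library of passage 13, Neurod1 also passed the test without the block (adjusted p = 0.034). The 2-DG libraries are shared by both comparisons, so these are not separate evidence.

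Passage, the number of times the ES cells had been split, moved each of the 5 tested genes. All 5 differed between passages (F test over 3 passages with treatment in the model), where 46.2% of all tested genes did. The adjusted p was 3.13e-06 for Elavl4, 0.00015 for Neurod1, 0.000594 for Elavl3, 0.0179 for Neurog2 and 0.0476 for Tubb3. The labels give only the passage number. Anything else that differed between the passages, such as culture or handling day, is not stated and cannot be told apart from it.

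Elavl4 had the clearest pattern, with 10.7 ± 2.44 CPM in passage 13, 4.86 ± 1.19 in passage 15 and 4.25 ± 0.879 in passage 16 (SD over the 4 treatments). Passage 13 was higher than passage 15 by 1.14 (SE 0.085) and than passage 16 by 1.32 (SE 0.085) on the log2 scale. Passage 13 was the highest in all 4 treatments for Elavl4, Neurod1 and Elavl3, which was true of 18.7% of all tested genes.

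Neurod1 stood at 2.13 ± 0.827, 0.856 ± 0.474 and 1.10 ± 0.714 CPM in passages 13, 15 and 16, and passage 13 was higher than 15 by 1.37 on the log2 scale (SE 0.16, adjusted p = 0.000104). Elavl3 stood at 1.72 ± 0.404, 0.874 ± 0.177 and 0.773 ± 0.286 CPM, and passage 13 was higher than 16 by 1.17 (SE 0.17, adjusted p = 0.000444). For both genes passages 15 and 16 did not pass a test of their difference (adjusted p = 0.294 for Neurod1 and 0.640 for Elavl3).

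Neurog2 followed another order, with passage 15 the lowest, 0.62 below passage 13 (SE 0.23, adjusted p = 0.0493) and 0.91 below passage 16 (SE 0.22, adjusted p = 0.0486) on the log2 scale. Of the largest difference between passages in each gene, that of Tubb3 was the smallest, 0.44 between passages 13 and 15 (SE 0.13, adjusted p = 0.0209). The passage call of Tubb3 was lost in 9 of 12 fits that left out 1 library, with an adjusted p up to 0.159. Without the 3X library of passage 16 that of Neurog2 was lost too (adjusted p = 0.0555).

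Over the 12 libraries the log2 CPM of Neurog2 and Tubb3 had a Pearson r of 0.893, of Neurod1 and Elavl3 0.843, and of Neurod1 and Tubb3 0.817. Elavl4 had r of -0.390 with Neurog2, -0.248 with Tubb3 and 0.581 with Elavl3. These libraries share treatments and passages, and the values are descriptions.

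Among genes with a mean of at least 1 CPM, the closest to Neurog2 were Ldhb (r = 0.969), Acsl5 (0.968) and Lgi2 (0.959). Those to Neurod1 were Tspoap1 (0.986), Tspan13 (0.983) and Casp8 (0.983), and those to Tubb3 were Metrnl (0.979), Gpr153 (0.975) and Ifi30 (0.975). Elavl3 was closest to Dclre1c (0.964), Tspyl5 (0.963) and Mcf2 (0.958), and Elavl4 to Smim8 (0.983), Hoxb8 (0.982) and Car14 (0.980). The closest to the mean of the 5 standardized profiles were Itga6 (0.988), Pisd-ps3 (0.985), Ccdc149 (0.983), Pdpn (0.982) and Pim2 (0.981).

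Other genes of the same program were read from lists in the comparison of 2-DG with 1X glucose. In that comparison 9.12% of all tested genes rose and 8.51% fell, and 21.1% and 20.2% did with the block. These shares stand beside the counts of every list below. Of 28 proneural and neuronal transcription factors 20 were tested, and 1 rose and 1 fell, where the blocked test gave 3 and 3. Onecut2, a cut-homeodomain factor of young neurons, rose from 15.7 ± 0.713 to 22.5 ± 0.466 CPM (adjusted p = 0.00996), and Sox4, which promotes neuronal gene expression, fell from 192 ± 8.38 to 134 ± 25.4 CPM (adjusted p = 0.0139). With the most abundant transcript alone neither passed (adjusted p = 0.0591 for Onecut2 and 0.0608 for Sox4), and Sox4 did not with only the groups compared in the fit either. Sox11, its close relative, stood at 188 and 192 CPM (adjusted p = 0.894). The list's median log2 fold change was -0.09, beside 0.0023 over all tested genes.

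Targets of the proneural factors did not pass. Of 12 genes for proneural targets and cell cycle exit, 0 passed edgeR's test, 1 had an unadjusted p under 0.05, 1 passed DESeq2, and the block gave 3 higher and 1 lower. Dll1, a Notch ligand that proneural factors switch on, stood at 675 CPM with 2-DG and 692 CPM in 1X glucose (log2 fold change -0.03, adjusted p = 0.939). Dll3, a Notch inhibitor, fell only with the block (log2 fold change -0.40, adjusted p = 0.357 without it and 0.0008 with it). Srrm3 and Srrm4, splicing factors of neuronal microexons, had log2 fold changes of 0.79 and 0.65 (adjusted p = 0.0558 and 0.25, and 0.0009 and 0.0042 with the block). The list's median was -0.05.

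Of 32 genes of the neuron's cytoskeleton and synapse, 30 were tested, and 5 rose and 0 fell, where 9.12% of all tested genes rose and 8.51% fell. The block gave 10 higher and 8 lower, where 21.1% and 20.2% of all genes passed, and the list's median was 0.06. Kif1a, the axonal kinesin that carries synaptic vesicle precursors, rose from 21.1 ± 2.30 to 50.9 ± 2.11 CPM (adjusted p = 8.49e-05). Syp, a synaptic vesicle protein, rose from 10.6 ± 0.681 to 18.4 ± 2.72 CPM (adjusted p = 0.00189). Ncam1, a neural cell adhesion molecule, had a log2 fold change of 0.45 (adjusted p = 0.0101), and Gap43, a growth cone protein, one of 0.45 (adjusted p = 0.0219). Prph, the intermediate filament peripherin, was named after its values were seen and had a log2 fold change of 1.47 (adjusted p = 0.0254). Dpysl5, the gene of the list with the highest mean CPM, had a lower mean with 2-DG. It stood at 153 ± 40.7 CPM, and at 196 ± 50.9 CPM in 1X glucose (adjusted p = 0.363, edgeR). Of the 30 tested genes, 18 had a log2 fold change above 0. With only the most abundant transcript of each gene, Kif1a, Ncam1, Prph and Gap43 no longer passed (adjusted p = 0.846, 0.928, 0.700 and 0.0878). Gap43 and Prph lost their calls when the 2-DG library of passage 13 was left out (adjusted p = 0.0819 and 0.0885), and each in 3 further such fits, with an adjusted p up to 0.0904 for Gap43 and 0.0941 for Prph.

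Repressors of neuronal genes gave 0 calls of 10 by edgeR, with 2 at an unadjusted p under 0.05 and 2 by DESeq2, and the block gave 2 higher and 2 lower. Hey1, a Notch effector, stood at 24.2 CPM with 2-DG and 44.3 CPM in 1X glucose (log2 fold change -0.87, adjusted p = 0.0592, and 0.0007 with the block). Id1, which sequesters E proteins away from the proneural factors, had a log2 fold change of -0.58 (adjusted p = 0.0743, and 0.0002 with the block). Ptbp1, the splicing repressor of neuronal exons, stood at 859 and 853 CPM (adjusted p = 0.927). The list's median was -0.01.

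**Figure D4:**
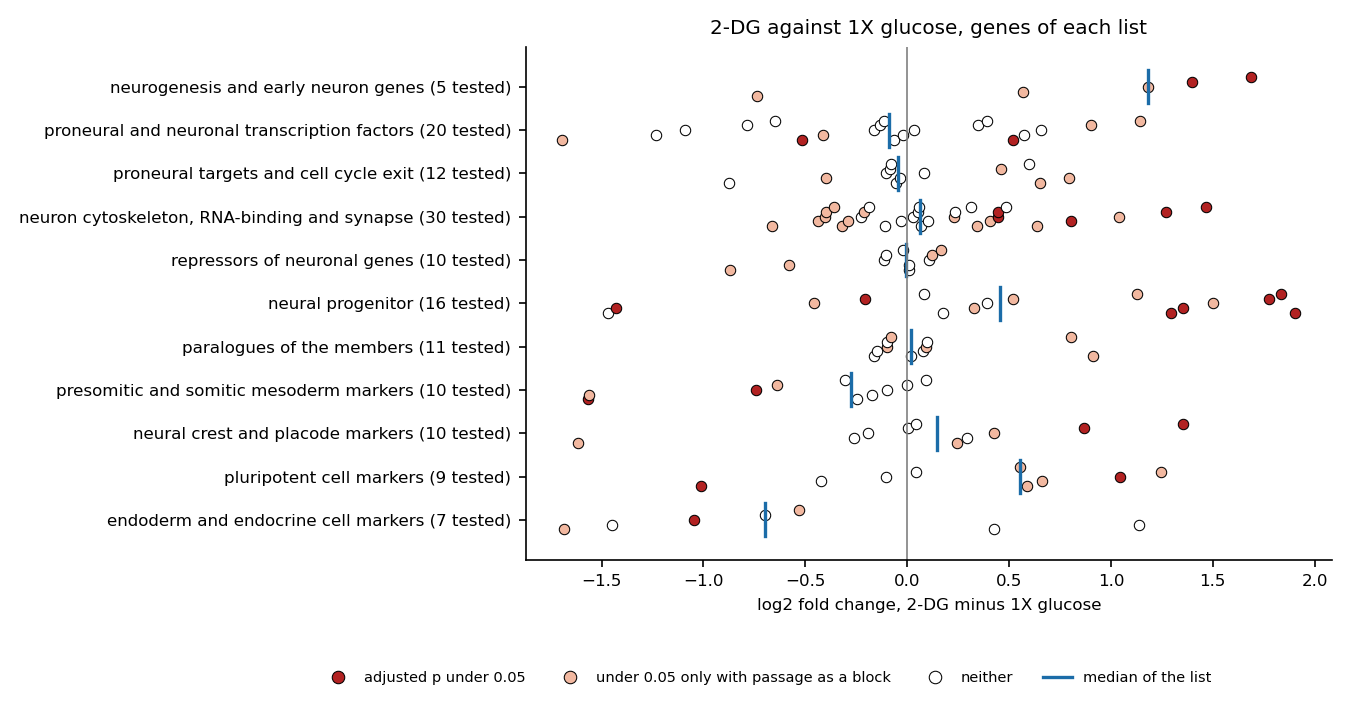
Log2 fold change of 2-DG over 1X glucose (horizontal axis) of each tested gene in the lists, red where the adjusted p was under 0.05, pale red where this was so only with the passage as a block, and white otherwise, with the list's median as a blue line. Beside the 5 tested genes themselves, the medians run from -0.70 for the endoderm and endocrine list to 0.55 for the pluripotent cell list, with -0.28 for the mesoderm list, 0.45 for the neural progenitor list, and between -0.09 and -0.01 for the neuronal transcription factors, targets and repressors.

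Of 18 listed genes of neural progenitors, the cells from which neurons come, 16 were tested. Of these, 5 rose and 2 fell, where 9.12% of all tested genes rose and 8.51% fell. The block gave 9 higher and 3 lower, where 21.1% and 20.2% of all genes passed. The list's median log2 fold change was 0.45. Irx5 and Irx3, Iroquois homeodomain factors of the neural tube, rose from 4.25 ± 0.922 to 14.6 ± 3.49 CPM (adjusted p = 0.000837) and from 11.6 ± 3.97 to 43.5 ± 17.9 CPM (adjusted p = 0.00492). Pou3f1 rose by 1.35 on the log2 scale (adjusted p = 0.00784), and so did Sox1, by 1.84 (adjusted p = 0.0185), and Pax6, by 1.29 (adjusted p = 0.0464). Sox1 and Pax6 were named after their values were seen. Irx3 lost its call with the most abundant transcript alone (adjusted p = 0.0745), and Pou3f1 in the blocked fit without passage 15 (adjusted p = 0.0517).

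Nkx6-1, a ventral progenitor factor, fell from 0.848 to 0.311 CPM (adjusted p = 0.00516), and Cdh2, or N-cadherin, fell from 316 to 273 CPM (adjusted p = 0.0198). Nes had a lower mean with 2-DG, 75.1 ± 9.09 CPM, than in 1X glucose, 103 ± 18.7 CPM, and did not pass (adjusted p = 0.127, edgeR). Of the 16 tested genes, 12 had a log2 fold change above 0. Sox2 stood at 98.3 ± 50.6 CPM with 2-DG and 68.6 ± 44.8 CPM in 1X glucose (adjusted p = 0.595, and 0.0002 with the block). Leaving out single libraries ended the call of Pax6 in 5 of 6 fits (adjusted p up to 0.181), and those of Sox1 and Cdh2 in 3 of 6 each (up to 0.0733 and 0.0619), including in all of these genes the fits without the 2-DG library of passage 13 and without the 1X libraries of passages 15 and 16. With the most abundant transcript alone Pax6, Sox1 and Cdh2 did not pass either (adjusted p = 0.0984, 0.0735 and 0.0674), nor did Pax6 and Cdh2 with only the groups compared in the fit (adjusted p = 0.114 and 0.0705) and Pax6 without the filter (adjusted p = 0.0665). The summed level of the list was 633 to 842 CPM with 2-DG and 593 to 714 CPM in 1X glucose. These ranges, not paired by passage, overlapped. The part of these cells in the rise of Neurog2 and Tubb3 was not tested.

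Paralogues of the 8 genes gave 0 calls of 11 tested by edgeR (14 listed), with 1 at an unadjusted p under 0.05 and 1 by DESeq2, and 3 higher and 2 lower with the block. Tubb5, the most abundant beta-tubulin, stood at 2062 ± 57.1 CPM with 2-DG and 1937 ± 65.7 CPM in 1X glucose (log2 fold change 0.09, adjusted p = 0.171). Tubb4a, a neuronal beta-tubulin, had a log2 fold change of 0.80 (adjusted p = 0.0891, and 0.0004 with the block), and Tubb4b one of 0.02 (adjusted p = 0.929). Beta-tubulin genes are alike in sequence, and how reads shared between them were counted was not given in the sources used here.

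Cells other than neural ones could carry some of the 8 genes, since Neurod1 and Elavl4 are also made in endocrine cells and Tubb3 in neural crest and placode derivatives. Of 10 endoderm and endocrine genes, 7 were tested, and 0 rose and Chga, or chromogranin A, fell from 4.09 ± 0.417 to 1.98 ± 0.179 CPM (adjusted p = 0.00189). The block gave 0 higher and 3 lower, the median was -0.70, and Ins1 and Gcg had 0 counts in all 12 libraries. The summed level of that list ran from 11.2 to 64.2 CPM with 2-DG and from 7.31 to 171 CPM in 1X glucose. The upper ends were mostly Cer1, which reached 57.6 CPM with 2-DG and 161 CPM in 1X glucose, so they say little of endocrine genes. Pdx1 had a mean of 0.562 ± 0.253 CPM with 2-DG and 0.251 ± 0.125 CPM in 1X glucose (adjusted p = 0.323, edgeR). Of the 7 tested genes, 2 had a log2 fold change above 0.

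Of 12 neural crest and placode genes, 10 were tested, and Dlx5 and Krt18 rose, by 1.35 and 0.87 on the log2 scale (adjusted p = 0.0463 and 0.0244). Dlx5 and Krt18 each lost the call in 4 of 6 fits that left out 1 library, with an adjusted p up to 0.142 and 0.0866. With the most abundant transcript alone neither passed (adjusted p = 0.683 for Dlx5 and 0.0938 for Krt18), and Dlx5 also lost the call without the filter and with only the groups compared in the fit (adjusted p = 0.098). That list's summed level was 75.1 to 145 CPM with 2-DG and 51.2 to 147 CPM in 1X glucose, its median was 0.14, and the block gave 4 higher and 1 lower. Sox10, a defining neural crest factor, had at most 4 counts in a library.

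In the list of presomitic and somitic mesoderm, with 10 of 10 genes tested, T, or Brachyury, fell from 225 ± 84.6 to 75.9 ± 17.5 CPM (adjusted p = 0.0136) and Hes7, of the segmentation clock, by 0.74 on the log2 scale (adjusted p = 0.00508). No gene of it rose, and the block gave 0 higher and 4 lower with a median of -0.28. The call of T was lost without the 2-DG library of passage 13 or of passage 15 (adjusted p up to 0.0577), and with the most abundant transcript alone. Of 9 pluripotent cell genes tested of 10, Tfcp2l1 had a log2 fold change of 1.05 (adjusted p = 0.0244) and Dppa5a one of -1.01 (adjusted p = 0.00836), with a median of 0.55, 5 higher and 1 lower with the block, and a summed level of 93.4 to 119 CPM against 74.2 to 130 CPM. Tfcp2l1 lost its call in 4 of 6 fits that left out 1 library (adjusted p up to 0.0931) and with the most abundant transcript alone (adjusted p = 0.301). The part of these cells in the values of the 8 genes was not tested.

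In 0X and 3X glucose 0 genes of these 10 lists passed edgeR's test against 1X glucose, and 0 passed DESeq2. At an unadjusted p under 0.05 there were between 0 and 3 genes in a list in 0X glucose and 0 in every list in 3X glucose.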

How the data were processed

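RNA was sequenced from day 4 gastruloids of E14TG2a cells, 3 libraries in each of 4 groups. PolyA RNA libraries were made with a directional kit. According to the submitters' processing notes and the study's methods, reads were trimmed with Trim Galore, mapped with HISAT2 (mm10), handled with SAMtools, cleared of PCR duplicates with Picard and quantified with StringTie on Galaxy. Tool versions and the strand setting of the counting were not given in the sources used here. The authors deposited estimated counts per RefSeq transcript for each library, as whole numbers not normalized between libraries. Their DESeq2 tables of log2 fold changes and p-values per transcript were not used.

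Counts were summed per gene, filtered with filterByExpr, scaled by TMM and fitted over all 12 libraries with edgeR 4.0.16 (R 4.3.3), using the quasi-likelihood test and Benjamini-Hochberg adjustment over 16966 genes at a threshold of 0.05. The script was tested on simulated data. Total counts per library ran from 31902471 to 45956080, and intervals and detection limits (3 counts) cover counting error only. Per-kilobase levels used the GENCODE length of 1 matched transcript of each gene. Promoters came from RefSeq.

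The labels give each passage to all 4 treatments, so passages pair the libraries. Deviations from the group means had an r of 0.0963 to 0.623 in 18 same-passage pairs, and of -0.440 to 0.191 in the 36 pairs of different passages. Fits with the passage as a block were therefore given beside the unblocked ones. Other alternatives were median-of-ratios scaling, no filter, only the groups compared, DESeq2 1.42.0, the most abundant transcript alone, and leaving out each library. DESeq2 with the block, and the block without each passage, were chosen after seeing the data.

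The 8 genes and the gene lists were chosen with earlier results of these data known. Genes named from a list were at most the 4 with the lowest adjusted p with 2-DG against 1X glucose and the 2 with the highest mean CPM, together with T and Sox2. Genes of like pattern were the 3 closest to each tested gene and the 5 closest to their mean. Other genes named are markers at or near 0 counts, or are given as named after their values were seen. Without the block, p-values measure the spread between libraries of the same treatment, each from a different passage. With the block, they measure the spread left once differences between passages are removed. Results of some list genes are not reported here.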

Additional observations from a re-analysis of the deposited data

How the results depend on the processing

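Against 1X glucose, the number of the 5 tested genes that passed with 2-DG was 2, 5 with the passage as a replicate block, 4 with DESeq2 and the block, 4 in each blocked fit without 1 passage, 1 with the most abundant transcript alone, and 1 to 2 when 1 library was left out. Against 0X glucose it was 2, then 5, 4, 4 to 5, 1, and 2 to 3. The block changed no call of these genes in 0X or 3X glucose against 1X glucose, where the count was 0 in all alternatives. Between passages the count was 5, 1 with the most abundant transcript alone, and 3 to 5 when 1 library was left out. Tubb3 kept its call in both 2-DG comparisons in all alternatives. It has only 1 listed transcript, so the alternative with the most abundant transcript left its counts unchanged.

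The changes of sign below were in comparisons that had not passed without the block. With the most abundant transcript alone, the log2 fold changes in 0X glucose were 1.03 for Neurog2, 0.95 for Elavl3 and 0.17 for Elavl4, that of Elavl4 in 3X glucose was -3.42, and that of Elavl3 with 2-DG against 0X was -0.34. In the blocked fits without 1 passage, Elavl3 in 0X glucose came to 0.026 and 0.0045, Neurog2 in 3X glucose to -0.071, and Tubb3 in 3X glucose to -0.0079. When 1 library was left out, the log2 fold changes in 0X glucose ran from -0.89 to 0.49 for Neurod1, -0.35 to 0.011 for Tubb3, -0.49 to 0.37 for Elavl3 and -0.65 to 0.49 for Elavl4. In 3X glucose they ran from -0.35 to 0.33 for Neurog2, -0.39 to 0.62 for Neurod1, -0.11 to 0.25 for Tubb3, -0.30 to 0.83 for Elavl3 and -0.47 to 0.58 for Elavl4. The cause was not tested. At 16 to 144 counts per library, Neurog2, Neurod1 and Elavl3 are the genes whose precision depth limits most, and Neurog1, Neurod4 and Dcx were below what these libraries could compare.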
